A study of Mus musculus with 21 samples.

Results

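Smoothened and the proteins that act beside it at the cell surface and in the primary cilium were followed at the RNA level in tumour-bearing and tumour-free mouse epidermis. The 7 genes are Smo, Boc, Cdon, Gas1, Gpr161, Evc and Evc2. They were taken by name for their roles, with earlier results of these data known, and all 7 were found among the 23713 genes of the deposited count table. All 7 passed the filter on low counts in each of the 3 mouse models.

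Hedgehog ligands are received by Patched, which in their absence holds Smoothened inactive. Boc, Cdon and Gas1 are co-receptors that bind the ligand together with Patched. Once released from Patched, Smoothened, a seven-pass membrane protein, gathers in the primary cilium, and Evc and Evc2 form a complex at the base of the cilium that relays its signal towards the Gli transcription factors. Gpr161 is a ciliary receptor that couples to the stimulatory G protein and so raises cAMP and protein kinase A activity, which keeps the Gli proteins in their repressor form. It leaves the cilium when the pathway is active. In skin the pathway drives hair follicle growth, and its unchecked activity gives rise to basal cell carcinoma.

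RNA was sequenced in bulk from keratinocytes, the main cells of the epidermis, taken from tail skin of 3 mouse models of basal cell carcinoma (BCC) and of tumour-free control mice (Con) of each model. SmoM2 is an activated form of Smoothened, and SmoM2 mice were sampled 29 days after tumours were induced. Gnas-eKO stands for loss of Gnas, which encodes the stimulatory G protein alpha subunit, and these mice were sampled at 42 days. PKI is the name of a protein inhibitor of protein kinase A, and these mice were sampled at 57 days. Each model had 3 Con and 4 BCC libraries, 21 in all, with 1 animal name per library in the column headers, and each model was its own batch in the labels (A, B and C), so model, day and batch cannot be told apart. The promoter or Cre line behind each model, the PKI construct, the mouse strain, the age of the mice and what the Con mice carry are not given in the sources used here.

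Library totals ranged from 16645858 to 22251132 counts, and 3 counts corresponded to 0.134 to 0.190 CPM (counts scaled to library size), so none of the 7 genes was near the limit of detection. In Gnas-eKO, Gnas itself lay at 172 to 178 CPM in the 3 Con libraries and at 50.6 to 114 CPM in the 4 BCC libraries. Gnas-eKO BCC replicate 2 stood apart from its group: Gli1, a target that reports pathway activity, was at 9.64 CPM there, inside the Con range of 4.76 to 9.98 CPM, while the other 3 BCC libraries lay between 153 and 278 CPM. It did not stand apart in Ptch1, another target, which was at 270 CPM there, near the 312 CPM of BCC replicate 3 and above the 30.0 to 39.1 CPM of Con, nor in Gnas, at 89.4 CPM. Tests, ratios and list counts in Gnas-eKO are therefore also given without that library. The animal names of SmoM2 BCC carry another prefix than those of SmoM2 Con, whose prefix is shared with Gnas-eKO, so in SmoM2 the tumour cannot be told apart from a possible difference in the origin of the mice. All 10 keratinocyte markers were present in every group, but their summed level was lower in BCC without overlap in the first 2 models: 56463 to 72869 CPM in SmoM2 Con and 39134 to 54550 CPM in SmoM2 BCC, and 57608 to 68811 and 30744 to 50979 CPM in Gnas-eKO. In PKI the groups overlapped, at 51872 to 69624 CPM in Con and 46968 to 74871 CPM in BCC. Of the 10 markers, 2 were called higher in SmoM2, Trp63 and Dsg3, and 5 lower, Krt5, Krt14, Krt10, Itga6 and Perp. None was called in Gnas-eKO, and 2 were called higher and 2 lower in PKI, beside 29.7%, 1.63% and 34.5% of all genes. The part of this shift in the results for the 7 genes was not tested.

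In SmoM2 the genes moved upwards almost as a group. BCC was compared with Con by edgeR's quasi-likelihood test, with Benjamini-Hochberg adjustment over all genes tested and an adjusted p under 0.05 as the threshold for a call. Of the 7 genes, 6 were called higher in SmoM2 BCC and none lower, where 29.7% of the 16370 genes tested were called in either direction and 16.2% were called higher. In Gnas-eKO 2 of 7, Evc and Evc2, were called higher, against 1.63% of 16409 genes called in either direction and 1.46% called higher. In PKI 4 of 7 were called, Smo and Evc higher and Boc and Cdon lower, against 34.5% of 16397 genes called in either direction, 18.7% higher and 15.8% lower. The median log2 fold change of the 7 genes reached 1.02 for SmoM2, 0.85 for Gnas-eKO and 0.12 for PKI, beside medians of 0.000538, 0.02 and −0.00118 over all genes tested. A bulk library does not separate fewer cells of a type from less RNA per cell, so each change below may be either.

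The ranges of the single libraries gave a similar picture in SmoM2 and a fuller one in Gnas-eKO. All 4 BCC libraries lay above all 3 Con libraries for 6 of the 7 genes in SmoM2, where 19.7% of genes tested did so, and for 6 of 7 in Gnas-eKO, where 9.73% did. Cdon was the exception in both models. In PKI, 2 genes had all BCC libraries above Con, against 22.4% of genes tested, and 2 had all below, against 20.8%.

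**Figure D1:**
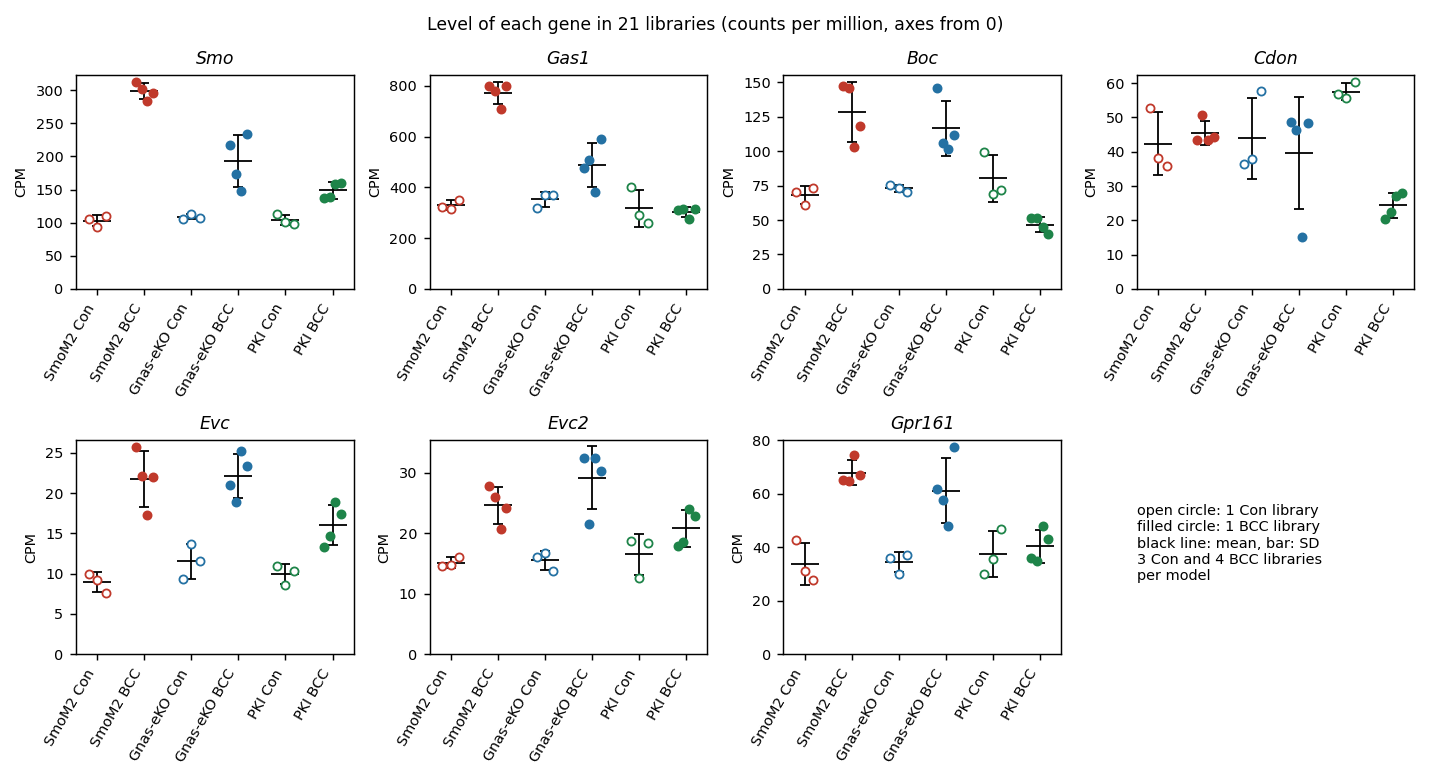
Level of each of the 7 genes in CPM (vertical axes from 0) in the 21 libraries, by model and state. Open circles are single Con libraries, filled circles single BCC libraries, black lines means and bars SD. Smo and Gas1 stand highest in SmoM2 BCC, and all 4 PKI BCC libraries lie below their Con libraries for Boc and for Cdon.

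Smo itself was the member with the highest change in SmoM2 and was higher in BCC than in every Con library in each of the 3 models. Smo (ENSMUSG00000001761.7) lies on chromosome 6, 29735503 to 29761365, plus strand, in the mouse build GRCm38. In SmoM2 it measured 105, 93.8 and 110 CPM in Con replicates 1 to 3 and 313, 302, 283 and 296 CPM in BCC replicates 1 to 4. The lowest BCC library there was far above the highest Con library. In Gnas-eKO it measured 106, 113 and 108 CPM in Con and 217, 174, 148 and 233 CPM in BCC, where replicates 2 and 3 were the lowest. In PKI it measured 113, 101 and 98.3 CPM in Con and 137, 139, 159 and 161 CPM in BCC, a narrower gap than in the other models.

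In SmoM2, Smo rose by 1.55 on the log2 scale (2.92-fold, SE 0.08, edgeR adjusted p 1.13e-06), and 5.00% of the genes tested had a log2 fold change as high or higher. It rose by 0.53 in PKI (1.44-fold, SE 0.09, edgeR adjusted p 0.00187). The log2 fold change in Gnas-eKO, 0.85 (1.80-fold, SE 0.17, edgeR adjusted p 0.0503), fell just short of the threshold, and it was 0.90 with an edgeR adjusted p of 0.0178 without BCC replicate 2. Whether reads of the activated form are counted in the Smo row of SmoM2 is not given in the sources used here. The Con level hardly differed between models, from 93.8 to 113 CPM over the 9 Con libraries (mean 105 ± 6.59, SD, n = 9), the lowest relative spread of the 7 genes in Con, at 6.26% of the mean.

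Gas1, a membrane-anchored co-receptor first known as a growth-arrest gene, followed Smo in SmoM2 but not in PKI. Gas1 (ENSMUSG00000052957.8) lies on chromosome 13, 60174405 to 60177365, minus strand. In SmoM2 it measured 321, 315 and 351 CPM in Con and 800, 780, 710 and 801 CPM in BCC. The groups lay far apart, with means of 329 ± 19.3 CPM (SD, n = 3) and 773 ± 42.9 CPM (SD, n = 4). In Gnas-eKO it measured 317, 370 and 369 CPM in Con and 475, 507, 383 and 592 CPM in BCC, where replicate 3 was only just above the highest Con library. In PKI it measured 400, 293 and 260 CPM in Con and 310, 316, 276 and 314 CPM in BCC, all within the Con range.

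In SmoM2, Gas1 rose by 1.25 on the log2 scale (2.37-fold, SE 0.07, edgeR adjusted p 3.91e-06). For Gnas-eKO it was 0.49 (SE 0.17, edgeR adjusted p 0.159), or 0.48 (0.150) without BCC replicate 2, and for PKI −0.05 (SE 0.13, edgeR adjusted p 0.804). The PKI value had no stable sign: without Con replicate 1, the highest library of that group, it was 0.14 with an edgeR adjusted p of 0.306.

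Boc, a cell-surface protein of the immunoglobulin superfamily, was the 1 gene of the 7 called in opposite directions, higher in SmoM2 and lower in PKI. Boc (ENSMUSG00000022687.12) lies on chromosome 16, 44485049 to 44558897, minus strand. In SmoM2 it measured 70.2, 60.8 and 73.3 CPM in Con and 147, 146, 103 and 118 CPM in BCC. In Gnas-eKO it measured 75.6, 73.1 and 70.5 CPM in Con and 146, 106, 102 and 112 CPM in BCC. In both models the lowest BCC library stood well clear of the highest Con library. In PKI it measured 99.7, 69.0 and 72.0 CPM in Con and 51.3, 51.2, 44.7 and 39.8 CPM in BCC, so here all BCC libraries lay below all Con libraries.

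In SmoM2, Boc rose by 0.93 on the log2 scale (1.91-fold, SE 0.13, edgeR adjusted p 0.000969). It fell by 0.76 in PKI (1.70-fold lower, SE 0.14, edgeR adjusted p 0.00378), and this fall was called without each library in turn, from −0.86 to −0.58. In Gnas-eKO its log2 fold change came to 0.69 (1.62-fold, SE 0.15, edgeR adjusted p 0.0574), and 0.74 with an edgeR adjusted p of 0.0211 without BCC replicate 2.

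Cdon, the closest relative of Boc among the co-receptors, was called in PKI only, and there it had the largest fall of the 7 genes. Cdon (ENSMUSG00000038119.15) lies on chromosome 9, 35421128 to 35507652, plus strand. In SmoM2 it measured 52.8, 38.3 and 35.8 CPM in Con and 43.3, 50.6, 43.5 and 44.2 CPM in BCC, which fell inside the Con range. In Gnas-eKO it measured 36.5, 37.8 and 57.6 CPM in Con and 48.6, 46.5, 15.2 and 48.4 CPM in BCC. Replicate 3 alone was low there, while the other 3 BCC libraries lay within the Con range. In PKI it measured 56.7, 55.7 and 60.3 CPM in Con and 20.3, 22.4, 27.1 and 28.0 CPM in BCC, with no overlap.

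Cdon fell by 1.22 on the log2 scale in PKI (2.33-fold lower, SE 0.12, edgeR adjusted p 0.000178), and 96.2% of the genes tested had a log2 fold change as high or higher. In SmoM2 it stood at 0.12 (SE 0.13, edgeR adjusted p 0.556). Without SmoM2 Con replicate 1, the highest Con library, it was 0.31 with an edgeR adjusted p of 0.0447, so whether Cdon passes in SmoM2 turned on that library. In Gnas-eKO it was −0.13 (SE 0.37, edgeR adjusted p 0.884), or −0.20 (0.797) without BCC replicate 2, and the sign turned without BCC replicate 3 (0.14) or without Con replicate 3 (0.11).

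The co-receptors could be set beside each other per length of transcript. Divided by the length of their annotated exons (in CPM per kilobase, kb), Gas1 made up 84.2% ± 1.30 of the summed level of Gas1, Boc and Cdon in SmoM2 Con (SD, n = 3), Boc 11.6% ± 0.576 and Cdon 4.17% ± 0.966. In SmoM2 BCC these shares were 88.3% ± 1.20, 9.73% ± 1.19 and 1.99% ± 0.165 (SD, n = 4), while the sum went from 132 ± 7.37 to 296 ± 18.3 CPM per kb. In PKI, Gas1 held 80.6% ± 1.82 in Con and 88.2% ± 0.874 in BCC, while the sum was 133 ± 28.2 and 116 ± 6.54 CPM per kb. The Gas1 share was thus higher in BCC than in Con in every library of both models, beside a larger sum in SmoM2 and an overlapping sum in PKI. In Gnas-eKO the Gas1 share overlapped between groups, at 84.3% ± 1.15 in Con and 84.0% ± 2.59 in BCC, and the sum was 141 ± 10.7 and 197 ± 31.8 CPM per kb. Without BCC replicate 2 the BCC share was 83.6% ± 3.02 and the sum 195 ± 38.8 CPM per kb (SD, n = 3). Shares and sums are descriptions with no test.

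Evc and Evc2, the partners of a ciliary complex whose loss causes Ellis-van Creveld syndrome in people, were both called higher in SmoM2 and Gnas-eKO, while in PKI Evc was called and Evc2 was not. Evc (ENSMUSG00000029122.11) lies on chromosome 5, 37289098 to 37336894, minus strand, and Evc2 (ENSMUSG00000050248.11) beside it, 37338499 to 37425055, plus strand, so they point away from each other. The RefSeq start sites (GRCm38.p6) are 1597 bases apart. The 250 bases before each start site are shown because the pair shares this interval, at chr5:37336882-37337131 on the minus strand for Evc and at chr5:37338228-37338477 on the plus strand for Evc2, each 5′ to 3′ on its own strand. Capitals mark the longest run that the 2 genes' windows share, which reads in opposite orientations.
Evc: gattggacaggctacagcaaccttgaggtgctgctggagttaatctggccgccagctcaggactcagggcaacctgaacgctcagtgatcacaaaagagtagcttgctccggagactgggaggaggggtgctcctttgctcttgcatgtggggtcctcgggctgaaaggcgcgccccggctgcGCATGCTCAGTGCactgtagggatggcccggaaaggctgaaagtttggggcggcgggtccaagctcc
Evc2: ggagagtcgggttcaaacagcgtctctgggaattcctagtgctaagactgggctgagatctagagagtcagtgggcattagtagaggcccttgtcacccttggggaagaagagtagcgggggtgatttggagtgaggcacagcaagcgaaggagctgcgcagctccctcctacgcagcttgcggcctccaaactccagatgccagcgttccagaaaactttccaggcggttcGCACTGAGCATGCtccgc
The shared run is 13 bases long, GCATGCTCAGTGC on the Evc strand, and ends 54 bases before the Evc start site and 5 bases before that of Evc2. It was picked after the sequences had been seen. On either strand it occurs in 10 of 32851 RefSeq promoter windows of 300 bases (0.0304%), which reach from 250 bases before to 50 bases after a start site.

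Windows of this kind were found for 6 of the 7 genes, 7 windows in all because Gpr161 has 2. The window of Cdon and the second of Gpr161 lie at RefSeq start sites 30948 and 6834 bases inside the annotated gene, so the region before the annotated gene start of Cdon was not searched. Boc was not matched. None of the 7 windows holds the letters GACCACCCA, the core of the site bound by Gli proteins, on either strand, and 83 of all 32851 windows do (0.253%). None holds TGACGTCA, the cAMP response element, and 588 of all windows do (1.79%). These letters are absent from the windows searched, which says nothing of other sites or of the factors.

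Evc measured 10.0, 9.2 and 7.6 CPM in SmoM2 Con and 25.7, 22.1, 17.2 and 22 CPM in SmoM2 BCC. It measured 9.4, 13.7 and 11.5 CPM in Gnas-eKO Con and 21.0, 19.0, 25.2 and 23.4 CPM in Gnas-eKO BCC. It measured 11.0, 8.6 and 10.4 CPM in PKI Con and 13.3, 14.7, 18.8 and 17.4 CPM in PKI BCC. No BCC library of any model reached down to its Con libraries, and the narrowest gap was in PKI.

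Evc was called higher in all 3 models, in Gnas-eKO only just past the threshold. On the log2 scale it rose by 1.30 in SmoM2 (2.46-fold, SE 0.16, edgeR adjusted p 0.000256), by 0.96 in Gnas-eKO (1.95-fold, SE 0.18, edgeR adjusted p 0.0428) and by 0.70 in PKI (1.62-fold, SE 0.15, edgeR adjusted p 0.00748). The Gnas-eKO call was past the threshold without BCC replicate 2 (edgeR adjusted p 0.0102) and not without any other single library (0.0522 to 0.187), with log2 fold changes from 0.83 to 1.10 over the 7 fits. It was not past the threshold with a sex covariate (edgeR adjusted p 0.0676) or with the replicate number as a block (0.117). Smo, at 0.0503 in Gnas-eKO, passed there under 4 of 8 other settings, each with all libraries kept. Among them was no filter on low counts (edgeR adjusted p 0.0450), and Smo was then likewise called higher in all 3 models. With the sex covariate or the block Smo did not pass in Gnas-eKO.

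Evc2 measured 14.6, 14.8 and 16.1 CPM in SmoM2 Con and 27.8, 25.9, 20.6 and 24.2 CPM in SmoM2 BCC. It measured 16.0, 16.8 and 13.7 CPM in Gnas-eKO Con and 32.5, 21.5, 32.4 and 30.2 CPM in Gnas-eKO BCC, where replicate 2 was lowest. In PKI the groups overlapped, with 18.7, 12.7 and 18.4 CPM in Con and 17.9, 18.5, 23.9 and 22.9 CPM in BCC. Gnas-eKO BCC replicates 1, 3 and 4 were thus the highest Evc2 libraries, while replicate 2 lay below SmoM2 BCC replicates 1, 2 and 4. The BCC effect on Evc2 was not called different between these models (log2 difference 0.22, edgeR adjusted p 0.805).

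On the log2 scale Evc2 rose by 0.72 in SmoM2 (1.64-fold, SE 0.12, edgeR adjusted p 0.00149) and by 0.93 in Gnas-eKO (1.91-fold, SE 0.18, edgeR adjusted p 0.0475). In PKI its log2 fold change of 0.34 did not pass (SE 0.16, edgeR adjusted p 0.139). As for Evc, the Gnas-eKO call was past the threshold without BCC replicate 2 (edgeR adjusted p 0.00347) and not without any other single library (0.0587 to 0.188). It was also lost with a sex covariate (edgeR adjusted p 0.0741) and with the block (0.133).

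Across the 21 libraries the levels of Evc and Evc2 on the log2 scale had a Pearson r of 0.91, and 0.67 once each group's mean was taken out. The other 20 pairs among the 7 genes had r from −0.25 to 0.89, and from −0.29 to 0.67 after group means were taken out. Within groups, r was 0.673 for Smo and Cdon, 0.645 for Smo and Gas1 and 0.621 for Gpr161 and Cdon. Without Gnas-eKO BCC replicate 3, in which Cdon was lowest, these came to 0.245, 0.448 and 0.598, and that of Evc and Evc2 to 0.644. Points of the same library share its scaling and its cell composition, and r is a description here. Per kb, Evc2 lay above Evc by a ratio of 2.28 ± 0.467 (SD, n = 3) among the Con libraries of SmoM2 and 1.5 ± 0.0722 (SD, n = 4) among its BCC libraries, with no overlap. The ratio was 1.81 ± 0.382 and 1.74 ± 0.226 in Gnas-eKO (BCC 1.82 ± 0.197 without replicate 2), where the groups overlapped, and 2.17 ± 0.208 and 1.71 ± 0.0534 in PKI, where they did not.

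**Figure D2:**
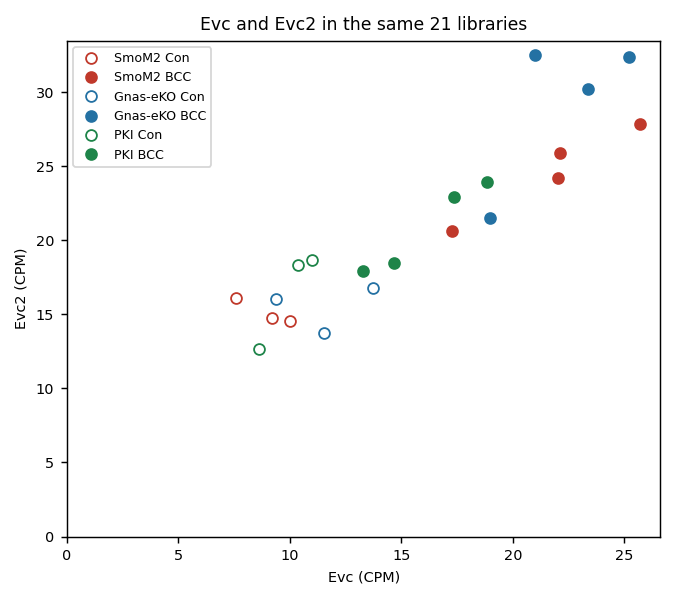
Evc (horizontal, CPM) against Evc2 (vertical, CPM) in the same 21 libraries, both axes from 0. Open circles are Con and filled circles BCC, coloured by model. All 12 BCC libraries have at least 13.3 CPM of Evc, and Gnas-eKO BCC replicate 2, at 19.0 and 21.5 CPM, lies below the other 3 libraries of its group on both axes.

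Gpr161, the ciliary receptor that restrains the pathway through cAMP, was higher in SmoM2 BCC. Gpr161 (ENSMUSG00000040836.15) lies on chromosome 1, 165295789 to 165326745, plus strand. In SmoM2 it measured 42.6, 31.2 and 27.6 CPM in Con and 65.2, 64.9, 74.7 and 66.9 CPM in BCC. In Gnas-eKO it measured 36.0, 30.1 and 37.1 CPM in Con and 61.7, 57.6, 48.0 and 77.6 CPM in BCC. The BCC libraries of both models lay above every Con library. In PKI it measured 30.1, 35.4 and 46.7 CPM in Con and 36.0, 34.7, 47.8 and 43.0 CPM in BCC, and the groups overlapped.

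The rise of Gpr161 in SmoM2 was 1.02 on the log2 scale (2.03-fold, SE 0.14, edgeR adjusted p 0.000578). In Gnas-eKO its log2 fold change came to 0.85 (1.80-fold, SE 0.17, edgeR adjusted p 0.0507), and 0.88 with an edgeR adjusted p of 0.0235 without BCC replicate 2. In PKI it was 0.12 (SE 0.17, edgeR adjusted p 0.602) and turned to −0.02 without Con replicate 1 (edgeR adjusted p 0.945). The ratio of Smo to Gpr161 per kb in SmoM2 was 3.92 ± 0.956 for Con (SD, n = 3) and 5.47 ± 0.549 for BCC (SD, n = 4), and the 2 groups' ranges overlapped.

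**Figure D3:**
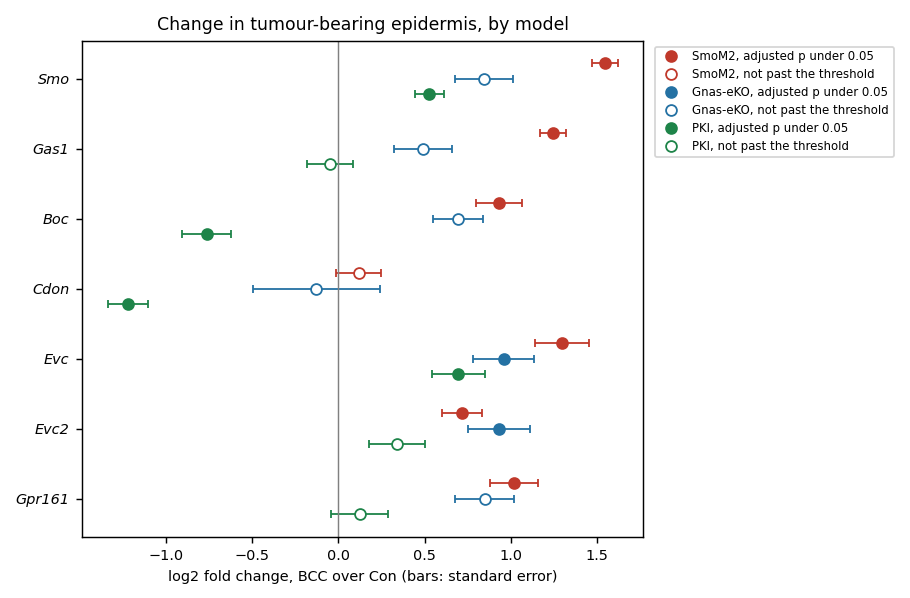
Log2 fold change of BCC over Con for the 7 genes (horizontal axis) in SmoM2 (red), Gnas-eKO (blue) and PKI (green), with standard errors as bars. Filled points have an edgeR adjusted p under 0.05. Boc and Cdon lie left of 0 with filled points in PKI, at −0.76 and −1.22, and Smo runs from 1.55 in SmoM2 to 0.53 in PKI.

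In Gnas-eKO, 5 of the 7 genes had an edgeR adjusted p between 0.0428 and 0.0574, and the number called turned on single libraries. Without BCC replicate 2 edgeR called 5 of the 7 higher (Smo, Boc, Gpr161, Evc and Evc2), where 1910 of 16195 genes tested (11.8%) were called. Without BCC replicate 3 it called 4 (Smo, Boc, Gas1 and Gpr161), where 1.81% of genes were called. Without each of the other 5 libraries in turn it called none of the 7, where 0 to 59 genes of 16067 to 16919 were called and 2085 to 2527 had an unadjusted p under 0.05. DESeq2 called 5 of the 7 higher with all 7 libraries, where 9.35% of genes were called.

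Whether the BCC effect differed between models was tested as a contrast on the 14 libraries of each pair of models. Between PKI and SmoM2, 5 of the 7 genes had a lower effect in PKI and none a higher one, where 24.9% of 17261 genes tested were called in either direction and 12.3% as lower. The log2 effect in PKI minus that in SmoM2 was −1.70 for Boc (SE 0.22, edgeR adjusted p 0.000144), −1.34 for Cdon (SE 0.19, edgeR adjusted p 0.000252) and −1.30 for Gas1 (SE 0.16, edgeR adjusted p 0.000109). All 3 co-receptors thus passed. Smo had a difference of −1.02 (SE 0.11, edgeR adjusted p 4.51e-05) and Gpr161 one of −0.89 (SE 0.23, edgeR adjusted p 0.0127). For the Evc pair the threshold was not reached: the difference was −0.60 for Evc (edgeR adjusted p 0.0628, within 2 SE from −1.05 to −0.15) and −0.38 for Evc2 (edgeR adjusted p 0.209, from −0.80 to 0.04). The Evc difference was past the threshold without SmoM2 BCC replicate 3 (−0.70, edgeR adjusted p 0.0278) or without PKI BCC replicate 3 (−0.69, 0.0386), and with DESeq2 (−0.60, adjusted p 0.0476).

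Between PKI and Gnas-eKO, Boc alone of the 7 passed, where 9.06% of 17254 genes tested were called in either direction and 4.57% as lower. The effect on Boc was lower in PKI by a log2 difference of −1.45 (SE 0.22, edgeR adjusted p 0.00259), and it stayed past the threshold without each of the 14 libraries in turn. The difference was −1.09 for Cdon (edgeR adjusted p 0.132, within 2 SE from −1.96 to −0.23), and −1.36 with an edgeR adjusted p of 0.00224 without Gnas-eKO BCC replicate 3, the library in which Cdon was low. Without that same library Gpr161 (−0.83, edgeR adjusted p 0.0316) and Gas1 (−0.64, 0.0396) also passed. With all 14 libraries their differences were −0.73 (edgeR adjusted p 0.0837) and −0.54 (0.146). Evc2 had −0.59 (edgeR adjusted p 0.153) with all libraries and −0.71 (0.0482) without Gnas-eKO BCC replicate 2. Smo had −0.32 (edgeR adjusted p 0.316, within 2 SE from −0.69 to 0.06) and Evc −0.26 (0.515, from −0.72 to 0.20).

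Between Gnas-eKO and SmoM2, edgeR called none of the 7, where 30 of 17151 genes tested (0.175%) were called, nor without Gnas-eKO BCC replicate 2, where 79 (0.462%) were. At an unadjusted p under 0.05, 2 of the 7 passed, Smo and Gas1, where 8.74% of genes did. Their log2 differences, Gnas-eKO minus SmoM2, were −0.70 for Smo (edgeR adjusted p 0.215, within 2 SE from −1.07 to −0.32) and −0.75 for Gas1 (0.162, from −1.11 to −0.39). DESeq2 called these 2 genes, with adjusted p 0.0490 for Smo and 0.0101 for Gas1. The remaining 5 had differences from −0.33 for Evc to 0.22 for Evc2, and the intervals of 2 SE all held 0, the widest being that of Cdon, from −1.12 to 0.64. The contrasts share libraries: each model's 7 libraries enter 2 of the 3.

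**Figure D4:**
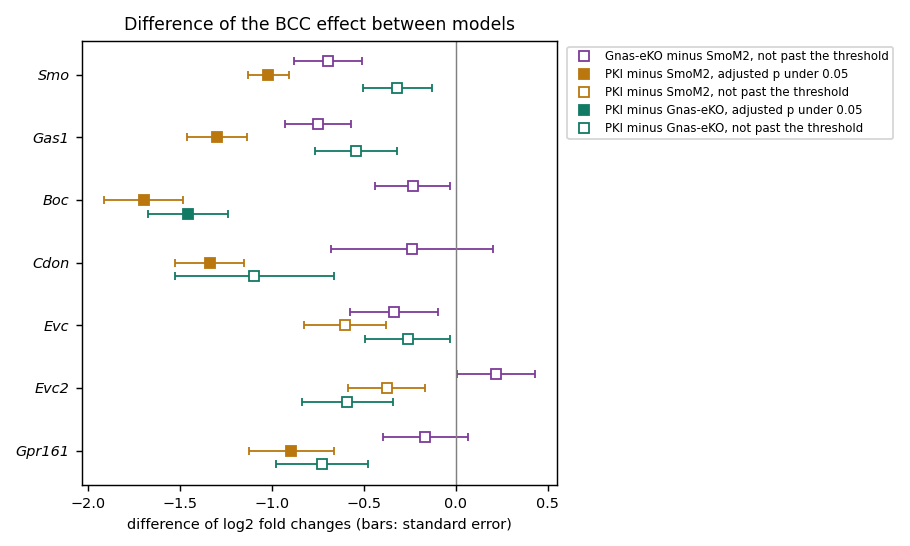
Difference of the log2 BCC effect between 2 models for the 7 genes (horizontal axis), with standard errors as bars. Filled squares have an edgeR adjusted p under 0.05. For PKI minus SmoM2, 5 genes lie between −1.70 and −0.89 with filled squares, for PKI minus Gnas-eKO only Boc is filled, and for Gnas-eKO minus SmoM2 none is.

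Levels of different genes were compared per kb of annotated exon. Over the 9 Con libraries Gas1 was the most abundant, at 112 ± 14.7 CPM per kb (SD, n = 9), followed by Smo at 18.8 ± 1.17, Boc at 16.6 ± 2.37, Cdon at 6.21 ± 1.36, Gpr161 at 5.06 ± 0.904, Evc2 at 2.7 ± 0.346 and Evc at 1.32 ± 0.234. The ranges of Smo (16.7 to 20.1) and Boc (13.7 to 22.4) overlapped, as did those of Cdon (4.64 to 7.81) and Gpr161 (3.97 to 6.71). These ranges do not settle the order of such neighbours, since both genes were measured in the same libraries. Their order within single libraries was not tested. All other neighbours in this order had separate ranges. Over the 12 BCC libraries the order was Gas1 at 176 ± 70.2 CPM per kb (SD, n = 12), Smo at 38.0 ± 12.3, Boc at 21.9 ± 9.17, Gpr161 at 8.12 ± 2.07, Cdon at 4.73 ± 1.66, Evc2 at 4.26 ± 0.859 and Evc at 2.59 ± 0.512. These means pool models whose levels differ. Gpr161 lay above Cdon without overlap in the BCC libraries of each model: 9.32 to 10.7 against 5.62 to 6.55 CPM per kb in SmoM2, 6.89 to 11.1 against 1.98 to 6.29 in Gnas-eKO and 4.98 to 6.87 against 2.63 to 3.62 in PKI. In PKI BCC the order of Cdon (3.17 ± 0.476, SD, n = 4) and Evc2 (3.56 ± 0.524) was the other way round, with overlapping ranges. Isoforms and the mappable length were not considered in this scale.

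Neighbouring annotation bears on 3 of the counts. Smo overlaps Gm13717 on the same strand, Gas1 overlaps Gm48488 on the opposite strand and Evc overlaps Crmp1, a neuronal phosphoprotein gene, on the opposite strand. Over the 21 libraries Gm13717 had 0.632 to 2.38 CPM, Gm48488 0.413 to 2.07 CPM and Crmp1 0.112 to 4.40 CPM. The library preparation was stranded, and whether counting used the strand is not given in the sources used here, so the counts of these 3 genes are uncertain by reads shared with these neighbours.

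For each of the 7 genes, the 3 genes whose log2 CPM followed it most closely over the 21 libraries were taken from the 15640 genes tested in all 3 models. The r used for this holds the differences between groups, so a like change over the models follows from the choice. Smo was followed by Patz1, a zinc finger transcription factor (r 0.98), Igfbp7, a secreted growth-factor-binding protein (0.98), and Synpo, an actin-associated protein (0.98). Like Smo, Igfbp7 was highest in SmoM2, with a log2 fold change of 3.13 there, 1.68 in Gnas-eKO and 1.14 in PKI. Boc was followed by Iqsec1 (r 0.96), Shisa2 (0.95) and Klf15, a zinc finger transcription factor (0.94). Each of these had, like Boc, a positive log2 fold change in SmoM2 and a negative one in PKI: 0.75 and −0.80 for Iqsec1, 1.14 and −1.02 for Shisa2, 1.90 and −0.99 for Klf15. Cdon was followed by Atp8b2, a phospholipid flippase (r 0.96), Itpripl2 (0.93) and Sectm1b (0.92), and with these 3 it had an r of 0.91 to 0.93 after group means were taken out, which came to 0.652 to 0.741 without Gnas-eKO BCC replicate 3. For the other 6 genes the r within groups was at most 0.82 with all libraries.

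Gas1 was followed by Arl4c, a small GTPase (r 0.95), Zfp64 (0.95) and Isoc1 (0.95). Gpr161 was followed by Mpdz, a scaffold of cell junctions (r 0.93), Igf1r, the insulin-like growth factor receptor (0.93), and Wdr6 (0.93). Evc was followed by Nipsnap1 (r 0.93), Smim1 (0.92) and Nlgn2, a neuroligin (0.92), and Evc2 by Tmem198b (r 0.92), Postn, the matrix protein periostin (0.92), and Ccdc106 (0.92). With group means taken out, Evc had an r of 0.28 with Nipsnap1, 0.36 with Nlgn2 and 0.63 with Smim1. None of the other 6 genes was among the 3 nearest of any of the 7. These genes were picked for their r, and no test was made of it.

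Other genes of the pathway were counted in lists. The first held 14 genes for the Hedgehog ligands, their release and their binding, of which 9 were tested in SmoM2 and in Gnas-eKO and 10 in PKI. In SmoM2, 3 of 9 were called higher and none lower, beside the 29.7% of all genes called: Ptch1, the Patched receptor (log2 fold change 4.70, edgeR adjusted p 3.50e-07), Gpc4, a cell-surface glypican (1.5, 1.15e-06), and Disp1, which releases the ligand (1.35, 0.0168). In Gnas-eKO, 1 of 9 was called, Ptch1, which was higher (4.14, edgeR adjusted p 0.0172), beside 1.63% of all genes. Without Gnas-eKO BCC replicate 2, Ptch1 (4.39, edgeR adjusted p 0.00106) and Gpc4 (1.03, 0.0106) were called, beside 11.8% of all genes. In PKI, 3 of 10 were called higher and 2 lower, beside 34.5% of all genes. Ptch1 rose by 2.99 (edgeR adjusted p 4.8e-05) and Scube3, a secreted carrier of the ligand, by 1.58 (0.00603), while Scube2, its relative, fell by 1.76 (0.0239). The median log2 fold change of the tested genes came to 1.35, 0.83 and 0.03 in SmoM2, Gnas-eKO and PKI. Ptch1, itself a target of the pathway, thus had a larger log2 fold change than any of the 7 genes in each model. The other gene that fell in PKI was Gpc6, a glypican (−0.90, 0.0247).

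The second list held 17 genes of the relay from Smoothened to the Gli proteins, all tested in each model. In SmoM2, 10 were called higher and 2 lower, in Gnas-eKO 2 higher and none lower, and in PKI 8 higher and 1 lower, beside 29.7%, 1.63% and 34.5% of all genes called, with median log2 fold changes of 0.35, 0.14 and 0.19. Gli2, a main activator of the pathway's targets, rose by 3.54, 2.60 and 1.31 in the 3 models (edgeR adjusted p 3.86e-08, 0.00699 and 0.00521). Kif7, a ciliary kinesin that binds the Gli proteins, rose by 2.34, 1.84 and 1.16 (edgeR adjusted p 4.96e-06, 0.0326 and 0.0011). Gli1 rose by 4.88 in SmoM2 (edgeR adjusted p 0.000462) and 2.93 in PKI (7.1e-05), and its log2 fold change in Gnas-eKO, 4.67, did not pass (0.0715). Without Gnas-eKO BCC replicate 2, the library at the Con level, Gli1 passed there (5.06, edgeR adjusted p 0.000397). That library was set apart by its Gli1 level, so the pass of Gli1 follows from the choice and counts for nothing more. Without that library the list had 3 genes called higher, Kif7, Gli1 and Gli2, beside 11.8% of all genes. It had 1 called lower, Gnas, the gene deleted in that model. Stk36, a kinase, rose by 1.34 in SmoM2 (edgeR adjusted p 0.0028) and 1.24 in PKI (0.019). The 2 that fell in SmoM2 were Arrb1, a beta-arrestin (−0.78, edgeR adjusted p 0.000328), and Grk2, a kinase that phosphorylates Smoothened (−0.53, 0.0015). The 1 that fell in PKI was Prkacb, a catalytic subunit of protein kinase A (−0.42, edgeR adjusted p 0.0212). These 3 are named as the only ones that fell, after their values were seen.

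The third list held 18 genes for the entry of Gpr161 into the cilium and its exit, all tested in each model. In SmoM2, 9 were called higher and none lower, in Gnas-eKO 1 higher and in PKI 3 higher and 2 lower, with median log2 fold changes of 0.40, 0.16 and −0.03. Of all genes 29.7%, 1.63% and 34.5% were called, so the share of this list in PKI was below that of all genes. Without Gnas-eKO BCC replicate 2, 4 were called higher in Gnas-eKO (Tulp3, Ift43, Arl13b and Arl6), beside 11.8% of all genes. Tulp3, the adaptor that carries Gpr161 into the cilium, was called in all 3 models, rising by 2.38, 1.58 and 0.93 (edgeR adjusted p 1.37e-07, 0.0209 and 0.000482). Bbs9, a subunit of the complex that moves receptors out of the cilium, rose by 0.81 in SmoM2 (edgeR adjusted p 0.000633) and 0.36 in PKI (0.0399), and Ift43, a subunit of the retrograde transport complex, by 0.74 (0.00153) and 0.34 (0.0426). Bbs2, of the same complex as Bbs9, fell by 0.56 in PKI (edgeR adjusted p 0.00368), as did Inpp5e, a ciliary phosphatase named after its value was seen, by 0.32, and Arl6, which recruits that complex, rose by 0.74 in SmoM2 (0.00189). The lists hold genes chosen by their known roles, and no test was made of a list.

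Markers of other cell types moved with some of the groups. The summed level of 10 fibroblast markers per library was 169 to 202 CPM in SmoM2 Con and 496 to 647 CPM in SmoM2 BCC, 188 to 203 and 145 to 745 CPM in Gnas-eKO, and 79.7 to 156 and 161 to 202 CPM in PKI. Called genes among them were 4 higher and 1 lower of 9 tested in SmoM2, 1 higher of 9 in Gnas-eKO and 3 higher and 1 lower of 8 in PKI, beside 29.7%, 1.63% and 34.5% of all genes. Dcn, the proteoglycan decorin, was called higher in all 3 models. In SmoM2 it went from a mean of 21.0 to 440 CPM, where the mean sum went from 188 to 581 CPM. The rise of that sum was thus mostly the rise of Dcn. Thy1, the 1 marker called lower in SmoM2, fell from a mean of 121 to 50.9 CPM. Pdgfra, a defining fibroblast receptor, reached at most 1.19 CPM in any library, and Dpt was at 0 in SmoM2 Con. In Gnas-eKO the mean Con sum was 196 CPM, of which Thy1 made up 132 CPM. Mean Thy1 was 45.7 CPM in Gnas-eKO BCC, while mean Dcn went from 14.8 to 246 CPM, so the sum mixes opposite changes. In Gnas-eKO BCC the highest fibroblast sum, 745 CPM, was that of replicate 2 and the lowest, 145 CPM, that of replicate 3. Without replicate 2 the sum was at most 404 CPM, and 6 fibroblast markers were called higher and 1 lower in Gnas-eKO, beside 11.8% of all genes.

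The summed level of 9 leukocyte markers was 75.5 to 92.6 CPM in SmoM2 Con and 50.3 to 105 CPM in SmoM2 BCC, 95.5 to 124 and 80.3 to 236 CPM in Gnas-eKO, and 47.3 to 121 and 254 to 469 CPM in PKI. Of those tested, 1 of 8 was called higher and 1 lower in SmoM2, none of 8 in Gnas-eKO and 6 of 9 higher in PKI, beside 29.7%, 1.63% and 34.5% of all genes. PKI BCC, where Boc and Cdon fell, was thus also the group in which the leukocyte sum lay above every Con library. Of 6 melanocyte markers 2 were called lower in SmoM2, near the 29.7% of all genes called in either direction. None was called in Gnas-eKO, and 4 were called lower in PKI, where 15.8% of all genes were called lower. Sums of endothelial, muscle and Merkel markers were at most 6.14 CPM in any library. Within that range Con and BCC did not overlap for endothelial markers in SmoM2 (1.15 to 1.78 and 2.22 to 3.32 CPM), muscle markers in PKI (0.316 to 1.16 and 3.23 to 6.14 CPM) and Merkel markers in SmoM2 (1.03 to 2.36 and 3.17 to 3.95 CPM) and PKI (2.23 to 2.72 and 0.516 to 1.48 CPM). The Merkel rise in SmoM2 was that of Piezo2 alone, from a mean of 0.607 to 2.71 CPM. Krt20 (0.793 to 0.653 CPM) and Atoh1 (0.248 to 0.118 CPM) had lower means in SmoM2 BCC. The sum of 4 nerve and Schwann markers was lower in all BCC libraries than in all Con libraries of each model. It lay at 12.5 to 15.7 CPM in SmoM2 Con and 5.39 to 6.69 CPM in SmoM2 BCC, at 11.8 to 13.6 and 4.86 to 9.37 CPM in Gnas-eKO, and at 18.4 to 24.6 and 6.91 to 9.87 CPM in PKI. Without Gnas-eKO BCC replicate 2, called markers in Gnas-eKO were 3 of 10 keratinocyte and 1 of 8 leukocyte markers tested (Itgam). With 1 of 4 nerve and Schwann markers (Ngfr), all of these were lower, beside 11.8% of all genes called. The fibroblast markers called in that fit are given above. The part of these cells in the results for the 7 genes was not tested.

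By Xist and Y-linked counts each BCC group held 2 female and 2 male libraries. Con groups held 1 female and 2 male libraries in SmoM2 and in PKI, and 2 female and 1 male in Gnas-eKO. The only Con library of its sex was replicate 3 in SmoM2 (female), replicate 3 in Gnas-eKO (male) and replicate 1 in PKI (female). Leaving out such a library thus also leaves out that sex from Con. In PKI BCC, both male libraries lay above both female ones for 5 of the 7 genes, Smo, Cdon, Gpr161, Evc and Evc2, where 28.5% of genes tested did so, and below them for Boc, where 27.0% did. Smo was at 137 and 139 CPM in the females and 159 and 161 CPM in the males, and Cdon at 20.3 and 22.4 against 27.1 and 28.0 CPM. In SmoM2 BCC the order was the other way for Smo, Boc, Evc and Evc2, with males below females (25.7% of genes tested), and Gpr161 had males above (24.9%). In Gnas-eKO BCC Evc alone separated, with males above (18.7%). The pattern was noticed after the values were seen, rests on 2 libraries a sex, and was not tested.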

How the data were processed

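Poly(A) RNA of 21 libraries was sequenced after a stranded preparation, per the labels' protocols. The authors deposited estimated counts per gene without normalization, of which 33.1% were not whole numbers, and a second table of normalized signal, named for TMM. The submitters' processing notes name bcl2fastq 2.20, cutadapt 1.18, STAR 2.7.0f, Partek and the build mm10. The counting step and its strand setting are not given in the sources used here.

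Estimated counts were rounded, and tests ran in edgeR 4.0.16 under R 4.3.3: filterByExpr by group, TMM scaling, robust quasi-likelihood fit, Benjamini-Hochberg adjustment over all genes tested. Standard errors are the absolute log2 fold change over the square root of F. CPM values used TMM over all 21 libraries, and log2 CPM a prior count of 2. Gene positions and exon lengths came from GENCODE M21. Scripts were tested on simulated data. Alternatives used DESeq2 1.42.0, limma 3.58.1 on the deposited signal (pseudocount 1), other scalings, no filter, a sex covariate, a replicate block, a joint fit and each library left out. Correlations with a library left out were added after the data were seen.

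The members and lists were chosen with earlier results of these data known. Named genes are the 7 members, the 3 genes nearest each in r, and at most 4 called genes per list and model with the highest absolute log2 fold change. The counts and medians of the first list leave out 1 gene, which is not reported here. Deviations of same-numbered Con and BCC libraries had correlations of −0.233 to 0.356, and in no model were those of all pairs over 0.1, so numbers were not taken as pairs.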

Additional observations from a re-analysis of the deposited data

Results flagged for a closer look

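Within groups of 4 libraries, 3 of 21 sets of values held a library set apart from the rest of its group by more than Dixon's critical value, where chance alone gives about 1 in 20. Con groups of 3 were not examined. Cdon was highest in SmoM2 BCC replicate 2, at 50.6 CPM, beside 43.3 to 44.2 CPM in the other 3. Cdon was lowest in Gnas-eKO BCC replicate 3, at 15.2 CPM, beside 46.5 to 48.6 CPM. Gas1 was lowest in PKI BCC replicate 3, at 276 CPM, beside 310 to 316 CPM.

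The BCC effect differed between PKI and SmoM2 by the contrast of the models for 5 genes: by −1.02 for Smo, −1.70 for Boc, −1.34 for Cdon, −1.30 for Gas1 and −0.89 for Gpr161 on the log2 scale, each negative because the effect was lower in PKI. Between PKI and Gnas-eKO it differed for Boc, by −1.45. Batch and day differ between the models as well and cannot be told apart from them.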

How the results depend on the processing

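All 10 calls among the 7 genes in SmoM2 and PKI, and all 6 between models, kept their direction and their side of the threshold under every alternative run, each library left out included. Evc and Evc2 in Gnas-eKO did not pass with a sex covariate (edgeR adjusted p 0.0676 and 0.0741). Smo, Boc and Gpr161 passed there with upper-quartile scaling, with DESeq2 and in the joint fit of 21 libraries, Smo and Gpr161 also with no filter on low counts, and Gas1 in the joint fit (edgeR adjusted p 0.0233). None of the 7 genes was called in Gnas-eKO with the sex covariate or the replicate block.

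Signs turned for log2 values that were not called. Cdon in Gnas-eKO was 0.11 without Con replicate 3 and 0.14 without BCC replicate 3, in a range of −0.249 to 0.142 over the libraries left out. Its difference between Gnas-eKO and SmoM2 was 0.0032 and 0.0286 without these, in a range of −0.435 to 0.0286. Without Con replicate 1, Gas1 in PKI was 0.14 (range −0.174 to 0.145) and Gpr161 in PKI −0.018 (range −0.018 to 0.316). The cause was not tested.

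The count of all genes called in Gnas-eKO, 267, was 1535 with DESeq2, 2644 in the joint fit and 106 with the sex covariate. The 30 called between Gnas-eKO and SmoM2 were 212 with DESeq2 and 66 in the joint fit, and the 1564 between PKI and Gnas-eKO were 2389 with DESeq2. With 1 library left out at a time, counts ran from 3613 to 4627 in SmoM2, 0 to 1910 in Gnas-eKO, 4057 to 5466 in PKI, 14 to 79 between Gnas-eKO and SmoM2, 3401 to 4429 between PKI and SmoM2 and 673 to 2512 between PKI and Gnas-eKO. In Gnas-eKO the counts were 0 without Con replicate 1 or 2 and 4 without Con replicate 3, where edgeR gave 2085 to 2527 genes at an unadjusted p under 0.05, and 38, 1910 and 59 without BCC replicates 1, 2 and 4.

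Where the replicate number was fitted as a block, BCC replicate 4 has no partner and drops out of the contrast. The count was then 135 in Gnas-eKO and 925 between PKI and Gnas-eKO, Evc and Evc2 in Gnas-eKO had adjusted p of 0.117 and 0.133, and Evc between PKI and SmoM2 passed (−0.64, 0.0454). The numbers share no stated origin, and same-numbered libraries had correlations from −0.233 to −0.121 (SmoM2), 0.0539 to 0.235 (Gnas-eKO) and −0.0602 to 0.356 (PKI).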
